A study of Homo sapiens with 4 samples.

Results

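Intergenic BrdU peaks that lay between a gene on the minus strand to their left and a gene on the plus strand to their right are described here. Such a pair of genes is divergent, because both are transcribed away from the sequence between them, and the gap is bounded on both sides by a transcription start site (TSS). A peak was taken when it was on chromosomes 1 to 22, overlapped no protein-coding and no lncRNA gene, and had the TSS of at least 1 of both flanking protein-coding genes within 100 kb. This rule gave 2167 of the 33295 peaks in the list, or 6.62% of those on chromosomes 1 to 22. Overlapping or touching peaks were merged into 1677 sites, which lay in 547 of 3550 divergent gaps.

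The peaks came from BrdU-Seq of BJ-hTERT cells, a line of human foreskin fibroblasts immortalized with telomerase. Cells were synchronized by serum starvation, released, pulsed with BrdU and collected at 16, 19, 22, 24 and 28 h, in 2 repeats, and no other treatment or genotype enters the list. The list joins the peaks of all timepoints and gives a chromosome, a start and an end, but names no timepoint, repeat or score. No spread between repeats and no change between timepoints could therefore be given, and the depth behind a peak is unknown.

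BrdU is a thymidine analog that is built into newly made DNA, so that its local accumulation marks where replication forks were active during the pulse. The study used local peaks of BrdU to look for places where forks slowed or paused. Between divergent genes RNA polymerase II starts at both ends and moves outward, and the start sites themselves are often GC-rich. A fork that leaves such a gap therefore enters either gene in its direction of transcription, whereas around a convergent gap transcription runs inward.

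The sequences of 2 of the peaks nearest to a TSS show what lay at the edge of the gaps. They are given on the plus strand of hg38, and capitals mark the 4 alternating hexamers, in which C and A, or T and G, take turns from either start. These cover both strands and overlap one another in longer runs. Of these peaks, that next to SPDYE6 held one and that next to HPGDS held none.
SPDYE6/PRKRIP1 (chr7:102356504-102356737): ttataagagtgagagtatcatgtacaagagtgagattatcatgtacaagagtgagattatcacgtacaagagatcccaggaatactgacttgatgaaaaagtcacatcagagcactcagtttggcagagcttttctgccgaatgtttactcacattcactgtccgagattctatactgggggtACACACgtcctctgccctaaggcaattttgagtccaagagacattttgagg
HPGDS/PDLIM5 (chr4:94343062-94343290): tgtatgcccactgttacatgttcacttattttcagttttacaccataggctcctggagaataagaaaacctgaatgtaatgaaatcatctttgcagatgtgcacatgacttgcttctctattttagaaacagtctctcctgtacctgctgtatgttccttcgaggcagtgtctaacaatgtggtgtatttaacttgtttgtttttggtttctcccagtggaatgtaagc

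The peak 59 bp from the TSS of SPDYE6, a member of the Speedy/RINGO family of cyclin-dependent kinase activators, had an AT content of 58.1%. None of its 31-base words occurred only once in hg38, so that its position among the copies is uncertain. The peak 185 bp from the TSS of HPGDS, which makes prostaglandin D2, had an AT content of 61.1%. In the HPGDS/PDLIM5 gap, the words of the peaks had a median of 99.5% found once. Windows of 250 bp before to 50 bp after the start were at hand in RefSeq (GRCh38.p14) for 870 of the 1094 genes at these gaps. Of all 2167 peaks, 2 reached into such a window of a flanking gene, namely the peak at SPDYE6 by 191 bp and that at HPGDS by 25 bp. Peaks over genes were left out, so that mainly the part of a window before the start could be reached. How many allowed positions reach such a window was not counted.

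A second set of sequences shows the repeats found in part of the peaks. In the first pair, which are tandem arrays, capitals mark a first stretch as long as the offset at which the sequence best matched itself. Such a stretch can hold several copies of a shorter repeat. In the last sequence capitals mark a short tandem repeat tract.
SEMA6B/TNFAIP8L1 (chr19:4619172-4619413): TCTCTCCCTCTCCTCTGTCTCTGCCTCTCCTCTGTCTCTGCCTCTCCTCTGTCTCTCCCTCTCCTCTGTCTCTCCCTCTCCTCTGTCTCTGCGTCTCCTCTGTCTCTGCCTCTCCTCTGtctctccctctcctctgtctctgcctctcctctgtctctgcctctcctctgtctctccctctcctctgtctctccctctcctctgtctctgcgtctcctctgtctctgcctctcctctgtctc
RTL6/PRR5 (chr22:44652585-44652806): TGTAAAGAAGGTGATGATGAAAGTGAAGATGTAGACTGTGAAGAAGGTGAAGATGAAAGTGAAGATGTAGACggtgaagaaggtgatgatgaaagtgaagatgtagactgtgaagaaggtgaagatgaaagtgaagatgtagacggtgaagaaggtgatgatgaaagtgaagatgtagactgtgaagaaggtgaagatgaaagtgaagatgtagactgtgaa
ME3/PRSS23 (chr11:86719051-86719345): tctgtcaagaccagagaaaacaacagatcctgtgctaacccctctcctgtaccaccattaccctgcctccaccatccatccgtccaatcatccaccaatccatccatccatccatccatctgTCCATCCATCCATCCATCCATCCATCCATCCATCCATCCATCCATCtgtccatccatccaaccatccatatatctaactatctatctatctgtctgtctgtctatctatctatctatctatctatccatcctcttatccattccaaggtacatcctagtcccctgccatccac

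The peak between SEMA6B and TNFAIP8L1 matched itself at all positions (100%) at an offset of 119 bp, and 4 peaks were stacked at its site. The peak between RTL6 and PRR5 matched itself at 98% of positions at an offset of 72 bp, under a stack of 5 peaks. The tract between ME3 and PRSS23 was a tetranucleotide repeat of 46 bp.

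Peaks between divergent genes were set against every position that each peak could have taken in its own gap. A position was allowed when it had the width of the peak, lay outside lncRNA genes and unknown bases, and was within 100 kb of a TSS. All of these positions were enumerated, and each peak had the same weight. The values for positions are thus exact means rather than samples, and no test was made. Intervals are 95% exact Clopper-Pearson intervals for peaks or sites. They cover counting error only, and since 38.5% of the peaks overlapped another peak, they are too narrow.

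The nearer TSS was at a median of 23.3 kb from the peak, with a 95% interval of 21.6 to 25.0 kb from order statistics, against 22.7 kb over the allowed positions. The distances ran from 0.059 to 99.9 kb, and the middle 50% of peaks lay between 9.79 and 46.2 kb. The farther TSS was at a median of 90.2 kb. At the limit of the rule, the last peak taken was at 99.9 kb (99.907 kb) and the first one left out at 101 kb (100.993 kb), and 688 peaks between divergent genes lay beyond it.

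Close to the TSS, peaks were fewer than the allowed positions gave. Within 1 kb of the nearer TSS there were 47 peaks at 33 sites, or 2.17% (95% interval 1.60 to 2.87%), where the allowed positions gave 3.02%. The ratio of the shares was 0.717. From 1 to 2 kb, 70 peaks were found against 65.01, a ratio of 1.08. Within 5 kb, the 295 peaks made up 13.6% (12.2 to 15.1%) against 14.6%, and within 10 kb the share was 25.3% against 26.5%. Within 25 kb it was 52.1% against 53.3%, and within 50 kb 78.3% against 78.01%. Beyond the first kb, the ratio in each distance class was between 0.956 and 1.08, and the interval of each class held the value of the allowed positions.

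**Figure D1:**
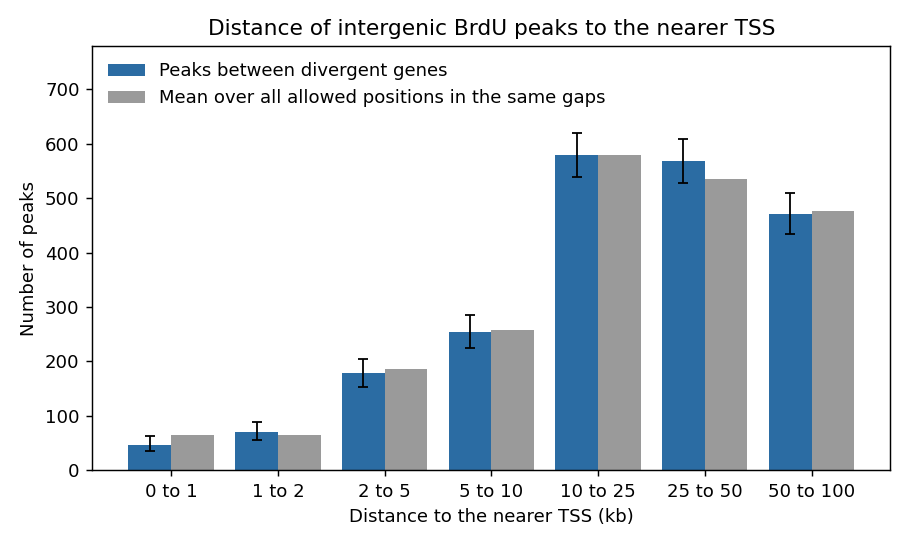
Number of peaks between divergent genes in classes of distance to the nearer TSS (blue, with 95% exact intervals), and the number given by the mean over all allowed positions in the same gaps (grey). In the class under 1 kb there were 47 peaks against 65.5, and in the class of 25 to 50 kb 568 against 536.

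The difference at 5 kb was small and depended on which peaks were taken. Among peaks of which at least 90% of the 31-base words occurred once in hg38, the share within 5 kb was 16.1% against 15.6%, so that its sign turned. The allowed positions were not filtered by their words, so that peaks and positions were not chosen alike in this comparison. Within 1 kb these peaks kept the lower value, at 2.12% against 3.25%. With the start of the canonical transcript as the TSS, the share within 1 kb was 1.25% against 2.18%.

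Within their own gaps, the peaks were centered on the middle of the ranks. When the allowed positions of a gap were ranked by distance to the nearer TSS, the median rank of the peaks was 50.2% and the mean 50.0%. Of the peaks, 8.58% were among the nearest 10% of positions of their gap and 8.95% among the farthest 10%. The nearer TSS was that of the minus-strand gene for 1057 peaks and that of the plus-strand gene for 1110. This is a share of 48.8% (46.7 to 50.9%) for the minus-strand gene, against 49.7% over the allowed positions.

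When the gap was cut into 10 equal parts, the parts next to both TSSs held 231 and 267 peaks. The part next to the minus-strand TSS held 10.7% (9.39 to 12.04%) against 12.7%, and that next to the plus-strand TSS held 12.3% (10.97 to 13.8%) against 12.9%. The parts from 30 to 40%, 70 to 80% and 80 to 90% of the way held more peaks than the allowed positions gave, and their intervals lay above those values. They held 10.8% (9.52 to 12.18%) against 8.83%, 11.5% (10.2 to 12.96%) against 9.99%, and 12.8% (11.405 to 14.3%) against 11.37%. The part from 50 to 60% held fewer, with 5.77% (4.82 to 6.83%) against 7.38%. In the other 4 inner parts the interval held the value of the allowed positions. The counts in the 10 parts were not repeated by site or by gap. Since peaks that overlap or share a gap are not independent, these intervals are too narrow. When the gap was cut into 3 equal parts, the central one held 25.0% of the peaks (23.2 to 26.9%) against 26.3%.

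**Figure D2:**
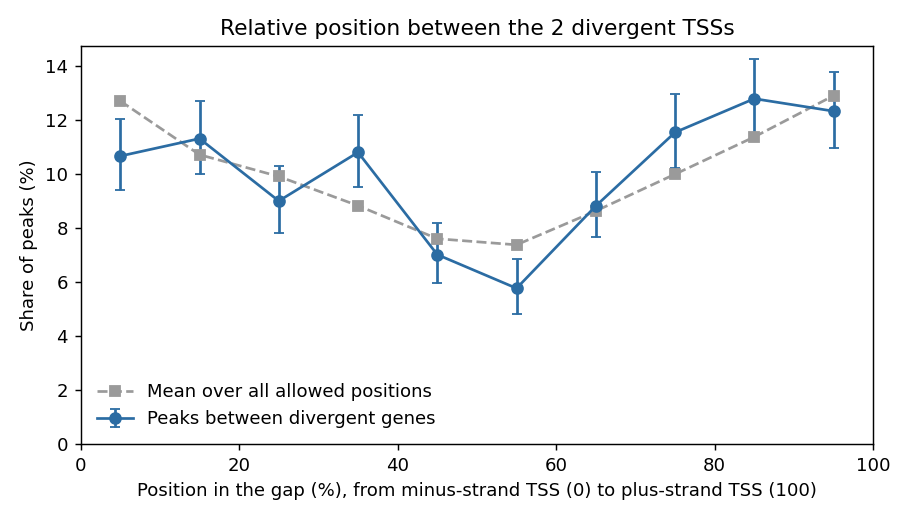
Share of peaks in 10 equal parts of the gap, from the TSS of the minus-strand gene (0%) to that of the plus-strand gene (100%), with 95% exact intervals (blue), and the mean over the allowed positions (grey). Both curves are lowest near the center, at 5.77% and 7.38% in the part from 50 to 60%, and positions over 100 kb from both TSSs were not allowed.

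The peaks were richer in A and T than the positions around them. Their AT content was 59.4% ± 5.78 (SD, n = 2167 peaks), against a mean of 56.2% over the allowed positions. The difference was present at all distances and was largest next to the TSS. Within 1 kb, the peaks had 56.8% ± 5.40 (SD, n = 47) against 50.7%. From 1 to 2 kb they had 58.1% ± 6.11 (SD, n = 70) against 54.5%, and from 50 to 100 kb 60.1% ± 5.31 (SD, n = 471) against 57.5%. The mean of the peaks thus changed by less with distance than that of the sequence in which they lay.

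Peaks were found in a narrow range of AT content. Windows of 280 bp in the same gaps, each gap weighted by its peaks, had an AT content under 45% in 10.5% of cases, but only 1.98% of the peaks (1.44 to 2.66%) did. From 60 to 65% AT, there were 37.1% of the peaks (35.0 to 39.1%) against 19.2% of the windows. At 70% and over there were 2 peaks, or 0.0923%, against 5.31% of the windows. Peaks were thus rarer than windows at both ends of the range. Within 1 kb of a TSS, 27.3% of the windows were under 45% AT and none of the 47 peaks was.

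**Figure D3:**
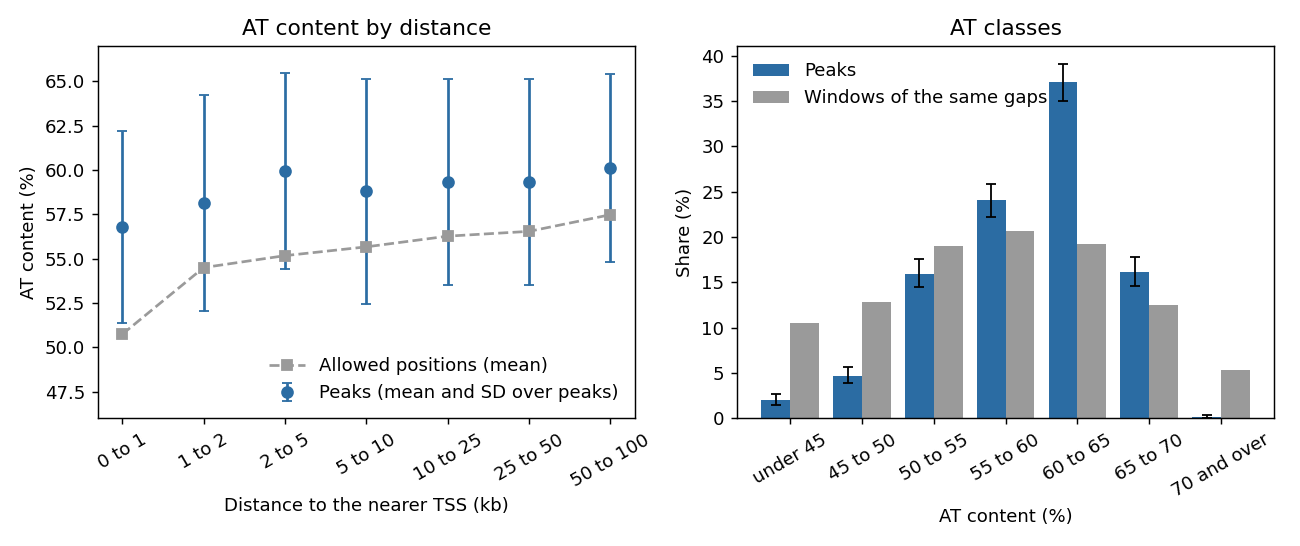
Left, AT content of peaks (blue, mean and SD over peaks) and of the allowed positions (grey, mean) by distance to the nearer TSS. Right, share of peaks (blue, with 95% exact intervals) and of 280-bp windows of the same gaps (grey) by AT content, where the class of 60 to 65% holds 37.1% of the peaks and 19.2% of the windows.

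The AT content moved together with the lower number of peaks next to the TSS. When each peak was compared only with windows of its gap whose AT content was within 5 percentage points of its own, the number given for the first kb fell from 65.8 to 50.6, against 47 peaks. The ratio was then 0.928, in place of 0.717 over all positions. Within 5 kb the ratio with such windows was 0.964. This comparison was chosen after seeing the data, and the part of the AT content in the result was not tested.

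Gaps with a peak were longer than other divergent gaps. Of 3550 divergent gaps, 723 were shorter than 1 kb, and the median was 27.7 kb, whereas gaps with a peak had a median of 86.0 kb. In gaps under 10 kb, 13 of 1160 held a peak (1.12%, 0.598 to 1.91%), and from 10 to 30 kb 75 of 681 did (11.01%, 8.76 to 13.6%). From 30 to 100 kb 22.5% did, from 100 to 200 kb 34.0%, and from 200 to 500 kb 34.7% (28.7 to 41.1%). Longer gaps offer more sequence, and per Mb of allowed sequence the range was smaller. Allowed sequence was counted in bases, whether or not a whole peak fits there, which weighs most in short gaps. There were 7.41 sites per Mb in gaps under 10 kb, 9.85 from 10 to 30 kb, 12.4 from 30 to 100 kb and 14.6 from 100 to 200 kb. The density was then 12.1 sites per Mb from 200 to 500 kb, and 4.60 in the 155 gaps over 500 kb, in which 91 sites were found.

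The place of the peaks in the gap also differed among these classes. In gaps of 10 to 30 kb, 68.4% of 155 peaks were within 5 kb of a TSS, against 58.8% over the allowed positions. In gaps of 30 to 100 kb, 14.1% of 689 peaks were, against 17.6%, and in gaps of 100 to 200 kb 5.26% of 704 peaks, against 7.48%. In gaps over 500 kb the share was 9.68% of 124 peaks, against 5.21%. The sign was thus not the same in all classes, and these differences were not tested.

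The 5 shortest gaps with a peak show how close together both TSSs could be. ANAPC15, a subunit of the anaphase-promoting complex, and FOLR3, a folate receptor, were 2.09 kb apart, and 2 peaks lay between them, at 0.255 and 0.407 kb from the nearer TSS. Single peaks were found between SPATA21 and NECAP2 (3.30 kb) and between KLF1, an erythroid transcription factor, and GCDH (3.96 kb). They were 1.38 and 1.71 kb from the nearer TSS. RWDD2B and USP16, a histone deubiquitinase, were 5.27 kb apart, and AHNAK2 and CLBA1 7.40 kb, with 1 site of 2 stacked peaks each. The mean AT content of the peaks in these gaps was 50.8% in AHNAK2/CLBA1 and 52.2% in ANAPC15/FOLR3, below the mean of all peaks (59.4%). It was 61.4% in KLF1/GCDH, 64.1% in RWDD2B/USP16 and 66.4% in SPATA21/NECAP2, above that mean.

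Among the 10 peaks nearest to a TSS were also those 274 bp from OPN4, the photopigment melanopsin, and 316 bp from AP1M2, a subunit of a clathrin adaptor. A stack of up to 4 peaks lay 318 bp and more from TNFSF9, a ligand that costimulates T cells. One of these peaks, of 199 bp, was 361 bp from the TSS. The peak 351 bp from UBE2QL1 lay in a stack of 2. For 8 of these 10 peaks the other TSS of the pair was more than 14 kb away, as for WAPL, a cohesin release factor, at 132 kb (132102 bp) from the peak next to OPN4. ANAPC15/FOLR3 and SPDYE6/PRKRIP1 were the exceptions, with 1398 and 7134 bp.

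Peaks were unevenly spread over the gaps. One site was found in 281 gaps, 2 to 4 sites in 177, 5 to 9 in 56, and 10 or more in 33. The 10 gaps with the most sites held 16.2% of all sites. The first was the gap of 279 kb between F3, which encodes tissue factor, the starter of blood coagulation, and SLC44A3, a choline transporter-like protein. It held 52 peaks at 47 sites, none of which was a tandem array, and the peak nearest to a TSS was 1.79 kb from SLC44A3. Each gene was the nearer one for 26 of the peaks. The sites had a median spacing of 2.27 kb and reached up to 98.2 kb from the nearer TSS.

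The second was the gap of 216 kb between COL5A2, a chain of fibrillar collagen V, and WDR75, a factor of ribosome biogenesis. Its 44 peaks at 40 sites also divided evenly, with 22 on the side of each gene, and their AT content was 62.8%. Between DNAH5, an axonemal dynein, and TRIO, a guanine nucleotide exchange factor for small GTPases, 33 peaks lay at 32 sites in a gap of 132 kb without a lncRNA gene. Here 20 peaks were nearer to DNAH5 and 13 to TRIO. PICALM, a clathrin assembly protein, and EED, a subunit of Polycomb repressive complex 2, had 26 sites between them, the nearest at 0.460 kb from EED. HPGDS and PDLIM5, a PDZ and LIM domain protein of the cytoskeleton, had 25 sites, and so had CDC42EP3 and RMDN2. Of the peaks, 20 were nearer to PICALM and 9 to EED, 13 to HPGDS and 15 to PDLIM5, and 20 to CDC42EP3 and 5 to RMDN2. In these 6 gaps the median rank of the peaks by distance to the nearer TSS was between 43.0% and 61.3%. This rank does not tell the sides of the gap apart.

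Fewer sites were found between CCDC190 and RGS4, a regulator of G-protein signaling (22), between IFNE, an interferon, and MTAP, an enzyme of methionine salvage (20), and between PSG9 and CD177 (16). In the IFNE/MTAP gap, 21 of 23 peaks were nearer to MTAP, but of its 320 kb only 122 kb were allowed, because it is longer than 200 kb and a lncRNA gene lies in it. Between NBPF9 and NOTCH2NLC, 24 of 25 peaks were nearer to NOTCH2NLC. Of the 31-base words of these peaks, a median of 0% (0 to 17.4%) occurred once in hg38, so that the positions of these 19 sites are uncertain. In PSG9/CD177 the median was 49.0% (8.38 to 100%), so that part of these positions is uncertain too. In the other 8 of the 10 gaps the median was between 85.5% in CCDC190/RGS4 and 100%, although single peaks were as low as 2.42% in CCDC190/RGS4 and 9.83% in COL5A2/WDR75.

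**Figure D4:**
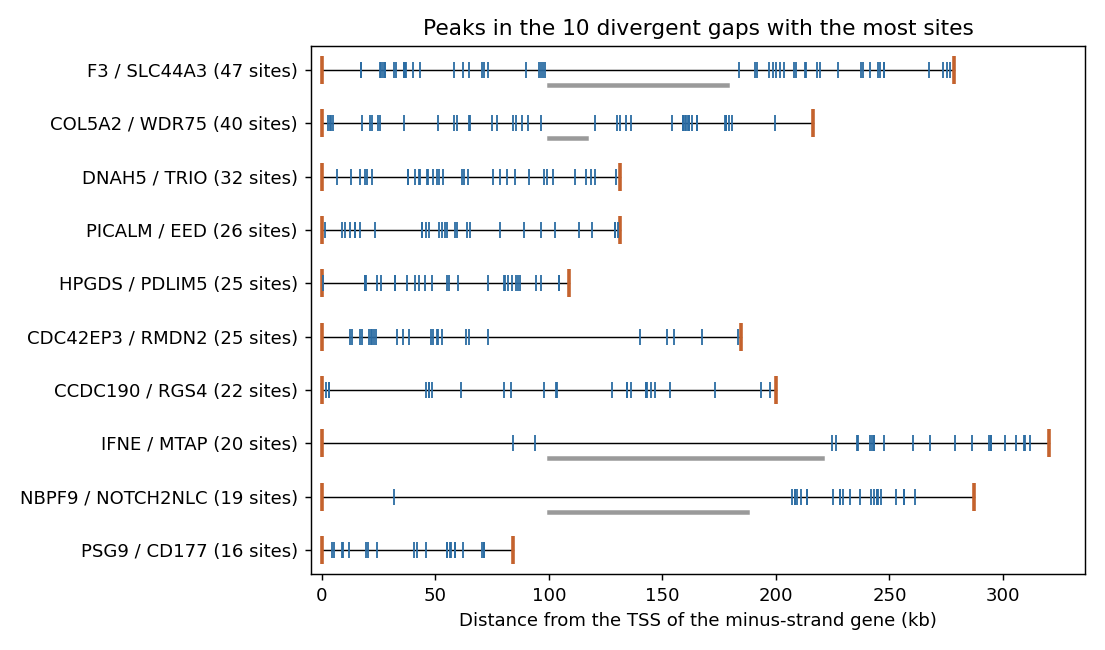
Peaks (blue marks, at their midpoints) in the 10 divergent gaps with the most sites, by distance in kb from the TSS of the minus-strand gene, where orange marks stand for both TSSs. Grey bars lie under stretches more than 100 kb from both TSSs, where no peak was taken. Peaks spread over most of the DNAH5/TRIO gap, whereas 24 of 25 peaks in the NBPF9/NOTCH2NLC gap are on the side of NOTCH2NLC.

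Per length, gaps with at least 20 kb of allowed sequence were led by ALPK2/MALT1, with 29.8 sites per 100 kb. Its 12 sites lay between 8.95 and 20.1 kb from the nearer TSS, and a median of 73.0% of the words of its peaks (25.6 to 100%) occurred once in hg38. MALT1 is a protease of antigen receptor signaling. FEZ2/VIT followed, with 14 sites in 50.6 kb or 27.7 per 100 kb. Next were F3/SLC44A3 with 26.0, DNAH5/TRIO with 24.3 and HPGDS/PDLIM5 with 22.97. The density over all divergent gaps was 11.6 sites per Mb of allowed sequence. Among chromosomes it ran from 4.96 sites per Mb on chromosome 7 to 19.9 on chromosome 2, with 17.8 on chromosome 1.

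Gaps at genes of 4 lists were also counted, beside 15.7% of the 3476 divergent gaps with allowed sequence. Of 59 gaps at a gene from a list of 111 genes of DNA replication or repair, 6 held a peak (10.2%, 3.82 to 20.8%). The list was not complete, so that the share can differ with a fuller list. Gaps not counted in it include ERCC6/CHAT (9 sites), HFM1/CDC7 (6 sites) and VEGFC/NEIL3 (3 sites). The median length of these 59 gaps was 0.252 kb, against 27.7 kb over all, and their density was 15.3 sites per Mb. The 17 sites included 5 between RAB23 and PRIM2, a subunit of DNA primase, and 4 between RFC1, of the clamp loader, and KLB. There were 3 between MARCHF4 and SMARCAL1, which remodels stalled forks, and 1 each next to CLSPN, a checkpoint mediator, and TOP2A, topoisomerase II alpha. Of 19 gaps at core histone genes none held a peak, but these had only 0.150 Mb of allowed sequence.

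Of 15 gaps at genes of fibroblast matrix or cytoskeleton, 4 held a peak (26.7%, 7.79 to 55.1%). Of their 53 sites, 40 were in the COL5A2/WDR75 gap, and there were 7 between COL1A1 and TMEM92, 4 between RASGRP1 and THBS1, and 2 between COL6A3 and MLPH. The density of 65.5 sites per Mb thus rested on 1 gap. Of 27 gaps at developmental transcription factors, 8 held a peak (29.6%, 13.8 to 50.2%), with 23 sites or 12.4 per Mb. The gap between TBX18 and NT5E, of 685 kb, held 13 of these sites, the nearest 0.880 kb from the TSS of NT5E. All 15 peaks of this gap were nearer to NT5E, and the closest to the listed gene, TBX18, was 586.94 kb from its TSS. The gap between IRX2 and IRX1 held 3.

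Most peaks held no repeat of the kinds searched. A tandem array, meaning that the sequence matched itself at 70% or more of positions at an offset of up to 120 bp, was found in 212 peaks (9.78%). Among windows of 280 bp the share was 0.970%. The offset with the best match had a median of 43 bp and was over 6 bp in 89.6% of the arrays. It can be a multiple of a shorter repeated unit. A perfect tract of at least 20 bp with a unit of up to 6 bp was found in 129 peaks (5.95%), close to the 5.51% of the windows. The unit was 4 bp in 46 of these peaks, 2 bp in 30 and 6 bp in 29. The other 1880 peaks (86.8%) held neither. Any of the 4 hexamers named above was found in 839 peaks (38.7%), against 24.0% of the windows of 280 bp. Peaks were partly longer than these windows, with a median of 291 bp and a range of 190 to 3810 bp. Read toward the nearer gene, 379 peaks held only CA hexamers, 410 only TG hexamers and 50 both. Pooled over the bases of all peaks, the sense strand of the nearer gene had 29.8% T and 28.98% A. Counted by peak, 1068 had more T than A, 1091 more A than T and 8 as much of each.

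Stacked peaks and arrays went together. A site was counted as an array when any of its peaks was one, so that deeper sites had more peaks that could count. Of the 1677 sites, 1332 were at most 1 peak deep, and 3.53% of these (2.60 to 4.66%) held an array. The share was 9.85% of the 274 sites with 2 stacked peaks, 42.9% of 49 with 3 (28.8 to 57.8%), 68.8% of 16 with 4 and 83.3% of 6 with 5 (35.9 to 99.6%). Since the list does not name timepoints or repeats, which libraries make up a stack is unknown.

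**Figure D5:**
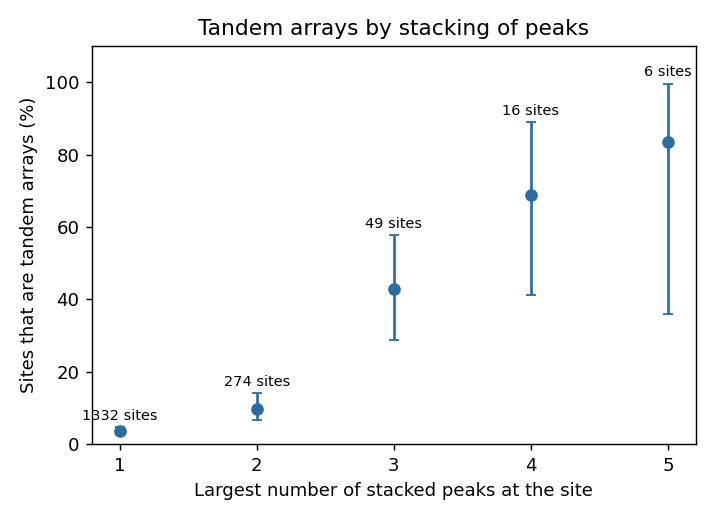
Share of sites between divergent genes at which any peak was a tandem array, by the largest number of stacked peaks at the site, with 95% exact intervals and the number of sites. The share is 3.53% at sites of single depth and 83.3% at the 6 sites with 5 stacked peaks.

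The 6 sites with 5 stacked peaks were between NID1, a basement membrane protein, and GPR137B, SYT15B and NPY4R2, CFAP46 and ADGRA1, RTL6 and PRR5, BAIAP2L1 and NPTX2, a neuronal pentraxin, and CCDC187 and GPSM1. The peaks of the site next to NID1 best matched themselves at an offset of 29 bp, and the site was 31.9 kb (31929 bp) from the TSS. That between CCDC187 and GPSM1 began 372 bp from the TSS of CCDC187, and it gave 5 of the 47 peaks within 1 kb. Of the words of the peaks in these gaps, a median of 25.2% occurred once in hg38 in CFAP46/ADGRA1, 34.8% in SYT15B/NPY4R2, 35.7% in RTL6/PRR5, 66.2% in NID1/GPR137B, 74.9% in BAIAP2L1/NPTX2 and 86.8% in CCDC187/GPSM1. The positions of peaks with few such words are uncertain, which includes peaks with none (0%) in SYT15B/NPY4R2 and RTL6/PRR5. The widest peak, of 3810 bp, lay between SIPA1L2 and MAP10, at 45.1 kb (45131 bp) from the TSS of MAP10, in a stack of 3.

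Peaks between convergent genes and between genes on the same strand, taken within the same 100 kb, were set beside those between divergent genes. There were 1617 and 4264 of them, so that peaks between divergent genes made up 26.9% of the 8048. The density was 14.9 peaks per Mb of allowed sequence in divergent gaps, 14.9 in convergent and 15.0 in same-strand gaps. In merged sites it was 11.6, 10.1 and 11.5 per Mb. At least 2 peaks were stacked at 20.6% of the sites between divergent genes (18.7 to 22.6%), at 25.8% between convergent genes (23.2 to 28.5%) and at 20.4% in same-strand gaps. Arrays were found at 6.62% (5.48 to 7.92%), 7.70% and 8.26% of the sites, and the AT content of the peaks was 59.4%, 59.8% and 59.3%.

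Within 1 kb of the edge of the gap, the ratio of peaks to allowed positions was 0.718 between divergent genes, where both edges are TSSs. It was 0.842 between convergent genes, where both edges are gene ends (62 peaks against 73.6), and 0.748 in same-strand gaps (129 against 172). Within 5 kb in same-strand gaps, the ratio was 0.924 at gene starts and 0.916 at gene ends. Differences among the 3 arrangements were not tested.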

How the data were processed

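The authors pulsed synchronized BJ-hTERT cells with BrdU, sequenced BrdU-labelled DNA, aligned the reads to hg38 (Bowtie2) and, timepoint by timepoint, called peaks over Input (MACS2, 2.1.0 in the submitters' processing notes). The deposited values are positions in bp, with no signal, p-value or read count, so depth and precision per library are unknown. The 4 ChIP-Seq samples of RNAPII and PCNA were not analysed here. Peak starts in the file count from 0, and coordinates in the text count from 1.

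Genes came from GENCODE version 44. Distances ran from the edge of the peak to the 5′ end of the gene. Allowed positions were enumerated exactly, windows of 280 bp were tiled, and for like AT content they moved in steps of 20 bp. Words of 31 bases were counted over both strands of hg38. The enumeration was tested on simulated gaps against direct counting. The work used samtools 1.23.1 and, in Python 3.11.15, the packages scipy 1.17.1, numba 0.67.0, numpy 2.4.6, matplotlib 3.10.9 and pandas 2.3.3.

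Members, lists and definitions of arrays and tracts were chosen with earlier results of these data known. Genes named are those at the 10 gaps with most sites, the 10 peaks nearest to a TSS, the 5 shortest gaps, the 5 densest gaps, the widest peak, the deepest sites and the gaps of the 4 lists. Some of these are not reported here. The genes at the printed arrays and tract were chosen after their values were seen. Alternatives used merged sites, equal weight per gap, other limits, other TSSs, and peaks without arrays, chromosome ends or the fullest gaps.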

Additional observations from a re-analysis of the deposited data

How the results depend on the processing

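For most of the 65 alternatives (54), the value moved by less than its counting interval, or by less than 1.5 times for counts and densities. Such a limit cannot show that a small difference from the allowed positions is stable, where it exceeds that difference. For the median distance, the difference was 0.619 kb and the limit 1.722 kb. The difference turned to -0.44 kb with each gap counted once and to -0.285 kb among peaks with at least 90% of words found once. In its other alternatives it stayed positive. For the share within 5 kb, the difference was also smaller than its limit of 1.52 points. The share within 5 kb of the nearer TSS, 1.01 percentage points lower than over the allowed positions, was 0.54 points (0.539) higher among peaks with at least 90% of words found once, an alternative chosen after seeing the data, like that of positions of like AT content. Only the peaks were filtered by their words in that alternative, and the allowed positions were not. The cause of the changed sign was not tested. The excess of AT content, 3.17 points, was 3.48 with each gap counted once, 3.54 without the 10 gaps with most sites, 2.59 without peaks within 5 Mb of a chromosome end and 2.83 among peaks with at least 90% of words found once. Of the 2167 peaks, 1169 had both TSSs within 100 kb. The share that overlapped another peak, 38.5%, was 36.4% when an overlap of at least 50% was required and 54.1% when peaks within 1 kb counted. The share of arrays, 9.78%, was 6.62% over merged sites, 17.95% with a self-match of 60% and 4.06% with one of 80%.

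No paired analysis was possible because neither repeats nor timepoints are named beside the peaks. A stricter peak threshold was not run, since the list carries no score, and no repeat was left out. The allowed positions are not filtered for how well reads align, and copies of a sequence in the genome are not told apart by these positions. Strength of a peak, its timepoint and the transcription of the flanking genes in these cells were not analysed here.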

Other observations

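How far the sequence of the peaks is repeated elsewhere in the genome was also measured. On average, 82.6% of the 31-base words of a peak between divergent genes occurred once in hg38, against 81.9% in 16287 windows of the same gaps. The medians were 96.3% and 100%. In 78 peaks (3.60%), under 10% of the words occurred once, against 3.77% of the windows. In the 47 peaks within 1 kb of a TSS the mean was 87.1%. Of the peaks, 81 overlapped a pseudogene, and 1545 lay in a gap with a lncRNA gene. No share over the allowed positions is given for either count, so that neither can be read as a trait of the peaks. Over all 2167 peaks, the nearest lncRNA gene, in the same gap or beyond it, was at a median of 35.6 kb.

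CpG dinucleotides were less frequent in the peaks than in their surroundings, with 1.75 per 280 bp between divergent genes against 3.38 in the windows. Between convergent genes the values were 1.92 and 3.34, and in same-strand gaps 1.90 and 3.23. The 4 alternating hexamers made up 2.31% of all hexamers of the peaks between divergent genes and 0.348% in the windows. The windows held an array in 0.970% and a tract in 5.51% of cases. No hypothesis was drawn from these values.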
